A study of Mus musculus with 24 samples.

Results

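The libraries described here are the 6 of 24 bulk RNA sequencing libraries of the study that came from myotubes of mdx mice and received aldosterone or its vehicle directly. They were chosen by their labels alone. They form a group of 3 libraries with aldosterone and a group of 3 with vehicle. Where the response of the mutant cells is compared with that of cells with an intact gene, the 3 C57 myotube libraries with aldosterone and the 3 with vehicle are used as well. The mdx mice are C57BL/10-Dmdmdx, whose mutated gene is Dmd, which encodes dystrophin, on the C57BL/10 background of the C57 mice. Myoblasts came from the hindlimb muscle of mice less than 5 days old and were fused into multinucleate myotubes in culture. All groups were kept in medium whose horse serum had been stripped of steroids with charcoal. Aldosterone was given at 1 µM and the vehicle, DMSO, at 0.001% by volume, in both cases for 48 h. The medium was then exchanged for hormone-free medium and the myotubes were lysed 15 h later, so every value below describes cells some hours after the hormone was removed. Each group holds 3 cultures, numbered as biological replicates, and neither the number of animals behind a culture nor their sex is given in the labels.

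Aldosterone is the steroid hormone that makes the kidney retain sodium. It enters cells and binds the mineralocorticoid receptor (gene Nr3c2), which moves to the nucleus and acts on transcription. At high concentrations it can also bind the glucocorticoid receptor (gene Nr3c1), and both receptors recognise the same class of DNA element. Muscle fibres carry both receptors, and mineralocorticoid receptor antagonists have been studied as a treatment in mdx mice, the standard mouse model of Duchenne muscular dystrophy.

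Library totals were 15706336, 16175573 and 18094601 counts with aldosterone, against 30167246, 14133165 and 14205773 counts with vehicle, so vehicle culture 1 was sequenced about as deeply as the other vehicle cultures together. Levels are given as CPM, counts per 1000000 of the TMM-scaled library total, in the order of cultures 1, 2 and 3. Transcripts encoded by the mitochondrial genome took 5.48% to 7.18% of counts in the 6 libraries. Dmd (ENSMUSG00000045103, chromosome X, 81992476 to 84249747 on mm39) was read at 39.6, 43.3 and 64.8 CPM with aldosterone, against 32.6, 38.9 and 51.9 CPM with vehicle in mdx myotubes and did not pass the test between treatments (log2 change 0.25, adjusted p = 0.0703). In C57 myotubes Dmd was at 449, 462 and 401 CPM with aldosterone, against 415, 331 and 355 CPM with vehicle, above every mdx library. The myotube label was checked with 18 marker genes, of which all were detected and whose summed level was 32020, 32530 and 47300 CPM with aldosterone, against 34030, 38550 and 49040 CPM with vehicle.

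Culture 2 stood apart from the other mdx cultures in its markers of other cell types. The summed level of 20 macrophage markers was 7.10, 239.8 and 16.6 CPM with aldosterone, against 7.12, 49.9 and 20.8 CPM with vehicle, and 10 of the 20 were at 0 in both libraries of culture 1. The summed level of 16 fibroblast markers was 1471, 5350 and 2497 CPM with aldosterone, against 1654, 4758 and 1788 CPM with vehicle. Macrophage transcripts were thus several times more abundant in the aldosterone library of culture 2 than in its vehicle library, whereas fibroblast transcripts were high in both libraries of that culture. The plot of summed markers shows the same values.

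**Figure D1:**
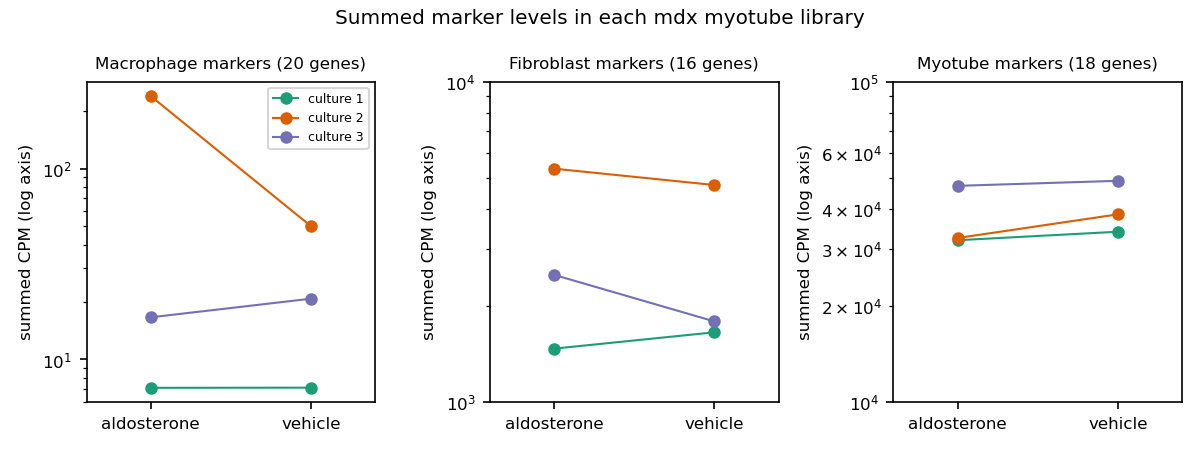
Summed level (CPM, log axis) of macrophage, fibroblast and myotube markers in each of the 6 mdx myotube libraries, aldosterone left of vehicle; points are libraries and lines join the cultures of one number. Macrophage markers reach 239.8 CPM in aldosterone culture 2, against 49.9 CPM in vehicle culture 2, and fibroblast markers are highest in both libraries of culture 2.

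The question of the comparison was what aldosterone changes in dystrophin-deficient myotubes. A gene was called when its p from edgeR's quasi-likelihood test, adjusted by Benjamini-Hochberg over 15763 genes, was below 0.05. Treating the 6 libraries as unpaired, 0 genes were called, which is 0% of genes tested, although 542 had an unadjusted p under 0.05 and DESeq2 called 19. Libraries of the same culture number deviated together from their group means. With the culture as a block, 367 genes were called, or 2.33% of those tested. Of these, 159 were higher with aldosterone, or 1.01%, and 208 were lower, or 1.32%. Every gene said below to rise or fall rests on this paired fit. The unpaired adjusted p was above 0.05 for each of them. P-values of the paired fit set the mean difference between treatments against how much that difference varies from culture to culture. That spread is estimated from the mdx and C57 cultures together. The labels do not say whether a number marks cells of the same animals.

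The changes were mostly small. The median size was 0.51 on the log2 scale among called increases and 0.40 among called decreases, and the median change of all genes tested was 0.01. Only 38 increases and 18 decreases exceeded 1. These large increases include 16 genes that were not higher in 3 of 3 cultures, the smallest change being 1.81 for Fcgr3. None of the 16 was called without culture 2, and they are described below with the macrophage markers. All 208 called decreases had the same direction in 3 of 3 cultures, and so did 143 of the 159 called increases. The calls rest on these same differences, so this agreement is no separate support for them. The libraries of both treatments did not overlap at all for 49 of the called increases and 69 of the called decreases. Among all genes tested, such a gap was found for 2.98% in the upward and 3.64% in the downward direction. Fits without 1 culture called 300 genes without culture 1, 101 without culture 2 and 149 without culture 3. Of the 367 genes, 220 were among those called without culture 1, 97 without culture 2 and 124 without culture 3. In all, 71 were called whichever culture was left out, 116 were called in none of these 3 fits, and 363 kept their direction in all 3.

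**Figure D2:**
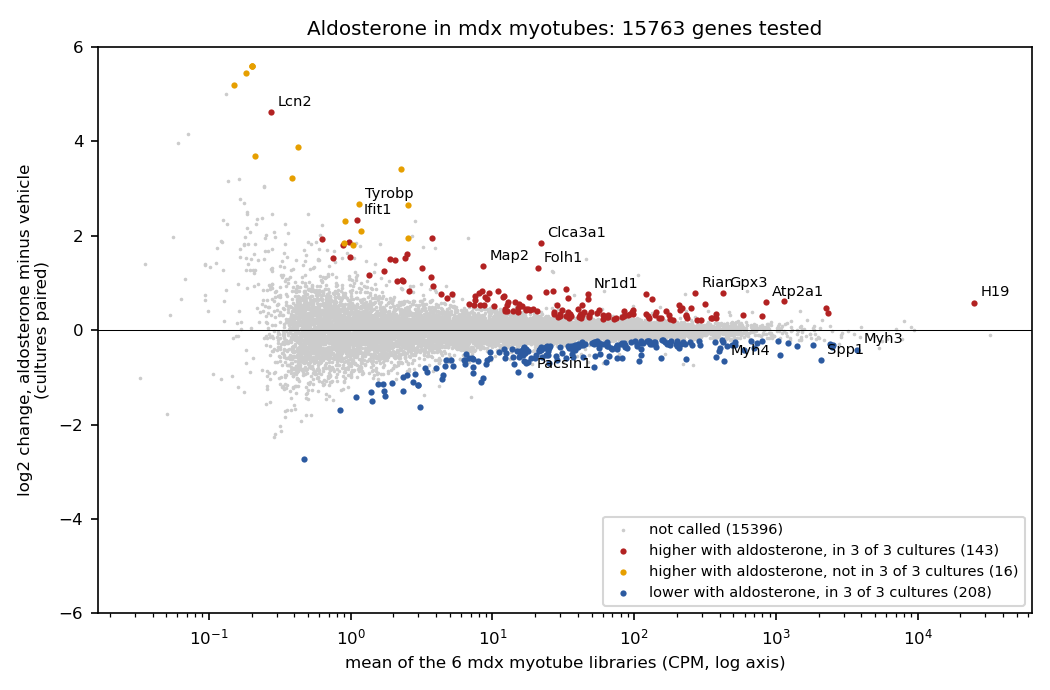
Log2 change with aldosterone (paired cultures) of each of 15763 genes against its mean level in the 6 mdx libraries (CPM, log axis). Red points are the 143 genes called higher in 3 of 3 cultures, orange points the 16 called higher without that agreement, blue points the 208 called lower, and grey points genes that were not called; most coloured points lie within 1 log2 unit of 0.

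The receptors were examined first. Nr3c2 (ENSMUSG00000031618, chromosome 8, 77626070 to 77971641) was read at 2.17, 2.9 and 3.85 CPM with aldosterone, against 3.1, 4.21 and 4.83 CPM with vehicle. It was lower in each aldosterone library than in the vehicle library of its culture, but the groups overlapped and it was not called (log2 change -0.45, adjusted p = 0.298). Nr3c1 (ENSMUSG00000024431, chromosome 18, 39543598 to 39652474) was read at 63.3, 108 and 82.5 CPM with aldosterone, against 67.6, 87.1 and 76 CPM with vehicle, with overlapping groups and no call (log2 change 0.11, adjusted p = 0.533). Per length, the deposited FPKM averaged 11.7 ± 2.97 with aldosterone and 10.7 ± 1.32 with vehicle for Nr3c1, and 0.489 ± 0.146 with aldosterone and 0.668 ± 0.153 with vehicle for Nr3c2 (SD, n = 3). The glucocorticoid receptor transcript was thus the more abundant of both under either treatment. Hsd11b1 (ENSMUSG00000016194, chromosome 1, 192903942 to 192946383), whose enzyme regenerates active glucocorticoid from its inert form, was read at 6.68, 8.35 and 19.3 CPM with aldosterone, against 5.83, 5.82 and 8.53 CPM with vehicle. It rose (log2 change 0.66, SE 0.16, adjusted p = 0.0343), most in culture 3, and was called without culture 1 but not without culture 2 or 3. Hsd11b1 overlaps Lamb3 on the opposite strand, and the library kit did not keep strand, so some of its reads may belong to Lamb3. It was the only one of 15 tested genes of corticosteroid receptors and steroid handling to be called, and the median log2 change of that list was -0.00306.

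Among 31 genes known as corticosteroid targets, 4 rose, none fell, and the median log2 change was 0.09. Gpx3 (ENSMUSG00000018339, chromosome 11, 54793279 to 54801203), which encodes the peroxidase secreted into plasma, was read at 490.2, 476 and 644 CPM with aldosterone, against 262, 312 and 364 CPM with vehicle. Every aldosterone library lay above every vehicle library (log2 change 0.78, SE 0.06, adjusted p = 3.25e-08), and Gpx3 was called whichever culture was left out. Glul, glutamine synthetase, was read at 76.9, 97.9 and 125 CPM with aldosterone, against 65.3, 77.8 and 95.9 CPM with vehicle. It was higher in each culture although the groups overlapped (log2 change 0.32, adjusted p = 0.00257), and it was called without culture 1 but not without culture 2 (adjusted p = 0.061) or 3 (adjusted p = 0.089). Lcn2 (ENSMUSG00000026822, chromosome 2, 32274645 to 32278264), which encodes an iron-binding secreted protein, was nearly silent: 27 reads were counted over the 3 aldosterone libraries and 1 read over the 3 vehicle libraries. That is 0.542, 0.787 and 0.283 CPM with aldosterone, against 0.0314, 0 and 0 CPM with vehicle, a ratio of 32 with a 95% counting interval of 5.28 to 1310 (exact Clopper-Pearson, counting error only). Lcn2 was called (adjusted p = 0.00565), though not without culture 2 (adjusted p = 0.12). Per1 is described with the clock genes below.

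Several classical targets were not called. Fkbp5, a co-chaperone that steroid receptors induce, was read at 20.7, 22.1 and 23.5 CPM with aldosterone, against 17, 19.9 and 15.5 CPM with vehicle, without overlap but just outside the threshold (log2 change 0.34, adjusted p = 0.0526). Tsc22d3, the glucocorticoid-induced leucine zipper, was at 49.1, 35.8 and 47.5 CPM with aldosterone, against 38.5, 36.7 and 38.8 CPM with vehicle (log2 change 0.21, adjusted p = 0.173). The kinase gene Sgk1, known in the kidney for raising sodium channel activity under aldosterone, was at 22.8, 51.4 and 28 CPM with aldosterone, against 29, 35.7 and 24.9 CPM with vehicle, higher in culture 2 and 3 and lower in culture 1 (log2 change 0.12, adjusted p = 0.85). Of 24 sodium and potassium transport genes, none rose and 1 fell, namely Slc8a3, a sodium and calcium exchanger (log2 change -0.44, adjusted p = 0.00799), which lost its call without culture 2 or 3 (adjusted p = 0.134 and 0.0804). Atp1b1, which encodes a subunit of the sodium pump, was not called (log2 change 0.21, adjusted p = 0.0627).

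Promoters were searched for the shared element of both receptors, taken as its core ACANNNTGT on either strand, in windows of 250 bases before and 50 bases from the RefSeq start site on GRCm38.p6, a build other than the mm39 of the counts. The core was present in 19 of the 126 called increases with a promoter (15.1%), in 13 of 151 called decreases (8.61%), in 598 of 11208 genes tested (5.34%) and in 6.85% of 32851 promoters. Such a match is no evidence of binding, and elements outside the window were not looked for. The windows of 3 called increases with a match are shown, because Folh1 had the smallest adjusted p of all increases and Glul and Lcn2 were called members of the target list. Among the largest decreases, described below, Tmem252, Fam107a and Cpxm1 hold a match as well. Letters run 5′ to 3′ along the gene's strand, with the match in capitals. It starts at position -196 from the start site in Folh1, at -25 in Glul and at -152 in Lcn2.
Folh1 (chr7:86775815-86776114, minus strand): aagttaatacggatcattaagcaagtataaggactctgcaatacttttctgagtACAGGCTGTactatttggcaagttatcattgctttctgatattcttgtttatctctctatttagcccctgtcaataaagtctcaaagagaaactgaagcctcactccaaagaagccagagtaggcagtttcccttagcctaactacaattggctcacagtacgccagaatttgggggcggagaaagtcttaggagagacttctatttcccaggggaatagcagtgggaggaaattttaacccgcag
Glul (chr1:153899679-153899978, plus strand): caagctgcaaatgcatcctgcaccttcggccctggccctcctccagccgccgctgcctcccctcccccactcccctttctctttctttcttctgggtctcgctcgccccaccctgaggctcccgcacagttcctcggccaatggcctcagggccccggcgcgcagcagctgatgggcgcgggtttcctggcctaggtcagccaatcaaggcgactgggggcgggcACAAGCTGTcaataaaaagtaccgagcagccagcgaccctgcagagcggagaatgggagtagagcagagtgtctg
Lcn2 (chr2:32387690-32387989, minus strand): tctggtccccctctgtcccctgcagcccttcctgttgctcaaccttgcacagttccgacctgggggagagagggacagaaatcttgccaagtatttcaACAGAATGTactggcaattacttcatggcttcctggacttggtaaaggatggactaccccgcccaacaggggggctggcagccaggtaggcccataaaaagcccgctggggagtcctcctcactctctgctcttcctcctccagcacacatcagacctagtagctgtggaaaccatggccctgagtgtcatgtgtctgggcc

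Of 18 circadian clock genes, 7 rose and 2 fell, against 2.33% of all genes called, and the median log2 change was 0.11. The core clock is a loop in which the activators Arntl (also called Bmal1) and Clock switch on their own repressors. The repressor Nr1d1 (ENSMUSG00000020889, chromosome 11, 98658758 to 98666159) was read at 44.1, 73.6 and 59.8 CPM with aldosterone, against 28.2, 41.9 and 33.3 CPM with vehicle, with all aldosterone libraries above all vehicle libraries (log2 change 0.76, SE 0.07, adjusted p = 2.73e-07). Its relative Nr1d2 was read at 81.4, 101 and 107 CPM with aldosterone, against 63.4, 74.3 and 80.8 CPM with vehicle, again without overlap (log2 change 0.40, adjusted p = 0.000349). Dbp, a transcription factor driven by the clock, was at 20.6, 38.4 and 32.1 CPM with aldosterone, against 13.3, 20.8 and 17.1 CPM with vehicle, higher in each culture with overlapping groups (log2 change 0.81, SE 0.08, adjusted p = 1.26e-06). These 3 genes were called whichever culture was left out.

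The period gene Per1 was read at 27.3, 28.9 and 35.7 CPM with aldosterone, against 22.8, 22.9 and 23.9 CPM with vehicle and did not overlap between treatments (log2 change 0.39, adjusted p = 0.0126). Per2 was at 12.8, 14.9 and 19.9 CPM with aldosterone, against 9.28, 11.6 and 15 CPM with vehicle (log2 change 0.42, adjusted p = 0.0199) and overlapped. Bhlhe40, a repressor that steroid and stress signals also induce, was at 95.3, 108 and 109 CPM with aldosterone, against 86.5, 83.9 and 75.1 CPM with vehicle without overlap (log2 change 0.34, adjusted p = 0.00656), and Ciart, another repressor, rose with a log2 change of 0.76 (adjusted p = 0.031). The decreases were Arntl, at 11.2, 7.99 and 10.1 CPM with aldosterone, against 13.6, 16.6 and 14.1 CPM with vehicle (log2 change -0.59, adjusted p = 0.0148), and Nfil3, a repressor that competes with Dbp, with a log2 change of -0.35 (adjusted p = 0.0123). The activator Arntl and several of the repressors it drives thus moved in opposite directions. Clock, Cry1, Cry2, Per3 and Tef were not called, with log2 changes between -0.11 for Cry1 and 0.11 for Per3. Per1 and Bhlhe40 were called without culture 1 but not without culture 2 (adjusted p = 0.094 and 0.11) or culture 3 (adjusted p = 0.3 and 0.23). Arntl, Nfil3 and Ciart were likewise called only without culture 1 (adjusted p = 0.4, 0.196 and 0.306 without culture 2), and Per2 in none of the 3 fits. Nr1d1 overlaps Thra, and Dbp overlaps Sphk2, both on the opposite strand. The phase of the clock in these cultures was not measured, since each was lysed at 1 time.

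Immediate early genes, which encode transcription factors switched on within minutes by growth factor and stress signals, were also among the called increases. Of 25 tested, 7 rose and 0 fell, and the median log2 change was 0.19. Fos (ENSMUSG00000021250, chromosome 12, 85520664 to 85524047) was read at 12.2, 15.9 and 17.1 CPM with aldosterone, against 9.25, 8 and 9.45 CPM with vehicle, without overlap (log2 change 0.73, SE 0.12, adjusted p = 0.000627). Ier2 was at 50.6, 69.2 and 54.4 CPM with aldosterone, against 36.9, 39.3 and 32.5 CPM with vehicle, also without overlap (log2 change 0.67, adjusted p = 0.00169). Egr1 was at 191, 317 and 259.6 CPM with aldosterone, against 166, 193 and 184 CPM with vehicle, higher in each culture with overlapping groups (log2 change 0.47, adjusted p = 0.0011). All 3 were called whichever culture was left out. Junb rose by a log2 change of 0.39, Myc by 0.32, Zfp36, whose product destabilises messenger RNA, by 0.43, and Klf6 by 0.24 (adjusted p = 0.00797, 0.0107, 0.0298 and 0.0464). Junb shares its locus with Prdx2 on the opposite strand. Of 17 genes that feed back on the ERK kinase pathway, 1 was called, the ERK phosphatase gene Dusp6, at 145, 134 and 135 CPM with aldosterone, against 122, 104 and 109.5 CPM with vehicle and without overlap (log2 change 0.30, adjusted p = 0.00837). Dusp6 and Junb lost their calls without culture 2 (adjusted p = 0.16 and 0.086) or 3 (adjusted p = 0.099 and 0.12), and so did Myc, Zfp36 and Klf6 (adjusted p = 0.0671, 0.495 and 0.456 without culture 2). Klf6 was not called without culture 1 either (adjusted p = 0.0763).

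The integrated stress response slows translation and activates the transcription factor ATF4 when amino acids are short or proteins misfold. Of 29 tested genes of this response, 6 rose and 0 fell, and 23 had a log2 change above 0, with a median of 0.13. Trib3 (ENSMUSG00000032715, chromosome 2, 152179342 to 152185952), a pseudokinase gene driven by ATF4, was read at 103, 43.8 and 44.7 CPM with aldosterone, against 87.4, 30.8 and 29.6 CPM with vehicle (log2 change 0.42, SE 0.07, adjusted p = 0.00147). Culture 1 lay well above the others under both treatments, so the groups overlapped although each culture rose. Chac1, whose enzyme degrades glutathione, was at 46.9, 27.5 and 26.4 CPM with aldosterone, against 40.9, 19.6 and 19.6 CPM with vehicle, with the same order of cultures (log2 change 0.35, adjusted p = 0.0211). Ppp1r15a, the phosphatase subunit that ends the response, rose by 0.38, Phgdh, the first enzyme of serine synthesis, by 0.25, Atf4 itself by 0.22 and Atf5 by 0.21 on the log2 scale (adjusted p = 0.00904, 0.0173, 0.0413 and 0.0452). Asns, Ddit3 and Sesn2 were not called, with log2 changes of 0.13, 0.16 and 0.24. Of these 6 calls only that of Trib3 held without culture 2 (adjusted p = 0.0478), and it was lost without culture 3 (adjusted p = 0.0621). Chac1 was called without culture 1 alone and Ppp1r15a without culture 3 alone, while Phgdh, Atf4 and Atf5 were called in none of the fits without 1 culture. None of the 20 aminoacyl-tRNA synthetase genes was called in either direction, with a median log2 change of 0.09, whereas 12 of them were called higher in C57 myotubes. The difference between the genotypes was not called for any of them.

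The windows of Trib3 and Chac1 are shown because both are called members of this list that hold the amino acid response core TGATGNAA, searched on either strand. It was found in 8 of 25 tested genes of the list with a promoter (32.0%), in 2.74% of genes tested and in 3.97% of all promoters, and in 4.76% of called increases and 1.32% of called decreases. In both windows the match, in capitals, is the reverse complement of the core. It starts at position 15 from the start site in Trib3 and at -193 in Chac1 (RefSeq, GRCm38.p6).
Trib3 (chr2:152344011-152344310, minus strand): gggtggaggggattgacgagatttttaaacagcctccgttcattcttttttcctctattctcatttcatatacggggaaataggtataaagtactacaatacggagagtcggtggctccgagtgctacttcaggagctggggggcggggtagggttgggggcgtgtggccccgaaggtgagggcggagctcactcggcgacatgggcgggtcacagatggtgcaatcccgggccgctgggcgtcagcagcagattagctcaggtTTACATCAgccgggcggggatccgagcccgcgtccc
Chac1 (chr2:119350992-119351291, plus strand): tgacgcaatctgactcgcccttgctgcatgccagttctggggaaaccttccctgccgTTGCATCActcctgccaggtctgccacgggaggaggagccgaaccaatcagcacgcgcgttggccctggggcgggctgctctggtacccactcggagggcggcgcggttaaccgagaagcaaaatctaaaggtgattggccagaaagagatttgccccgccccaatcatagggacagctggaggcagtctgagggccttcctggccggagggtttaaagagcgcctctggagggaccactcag

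Of 31 genes for heat shock proteins and protein folding stress, 1 rose and 1 fell, and both encode small heat shock proteins of muscle. Hspb1 was read at 276, 208 and 284 CPM with aldosterone, against 232, 186 and 202 CPM with vehicle (log2 change 0.30, adjusted p = 0.00621), and Hspb8 at 1111, 1007 and 1202 CPM with aldosterone, against 1269, 1235 and 1482 CPM with vehicle (log2 change -0.26, adjusted p = 0.0141). Hspb8 did not overlap between treatments, whereas Hspb1 did. Neither call held without culture 3 (adjusted p = 0.29 and 0.25), and that of Hspb8 was also lost without culture 2 (adjusted p = 0.195).

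Contractile genes moved in both directions. Of 10 sarcomeric myosin heavy chain genes, 1 rose and 4 fell. Myh4 (ENSMUSG00000057003, chromosome 11, 67128855 to 67151272), the fastest heavy chain, was read at 207, 367 and 442 CPM with aldosterone, against 348, 585 and 642 CPM with vehicle. It was lower in each culture by a similar factor (log2 change -0.65, SE 0.07, adjusted p = 2.16e-06), and the groups overlapped because the cultures differed more than the treatments. Myh3, the embryonic chain, was at 2887, 2890.0 and 3799 CPM with aldosterone, against 3436, 4292 and 5066 CPM with vehicle (log2 change -0.41, SE 0.07, adjusted p = 0.000944). Myh2, a fast oxidative chain, fell with a log2 change of -0.37 (adjusted p = 0.00125). Myh15, which is rare here, was at 1.56, 2.48 and 1.19 CPM with aldosterone, against 2.73, 5.33 and 3.27 CPM with vehicle (log2 change -1.10, adjusted p = 0.0108). Myh7 (ENSMUSG00000053093, chromosome 14, 55208141 to 55232083), the slow chain shared with the heart, was at 2623, 2097 and 3143 CPM with aldosterone, against 1740.0, 1898 and 2457 CPM with vehicle and rose (log2 change 0.36, SE 0.07, adjusted p = 0.00722). The perinatal chain Myh8 and the fast chain Myh1 were not called (log2 changes -0.19 and -0.18, adjusted p = 0.225 and 0.128).

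Set per length, the deposited FPKM of Myh3 averaged 561 ± 104 with aldosterone and 753 ± 154 with vehicle (SD, n = 3 each). That of Myh8 averaged 516 ± 211 with aldosterone and 584 ± 188 with vehicle, and that of Myh7 324 ± 71.6 with aldosterone and 252 ± 51.1 with vehicle. The fast chains were scarcer, with 103 ± 22.2 FPKM with aldosterone and 116 ± 18.8 FPKM with vehicle for Myh1, and 59.9 ± 21.8 FPKM with aldosterone and 93.4 ± 28.5 FPKM with vehicle for Myh4. Embryonic, perinatal and slow chains therefore made up most heavy chain transcripts under both treatments. The heavy chain genes on chromosome 11 are close copies, and the sources used here do not state how reads shared between them were counted. Myh7 was called without culture 2 only (adjusted p = 0.185 without culture 1 and 0.0993 without culture 3). Myh3 lost its call without culture 2 (adjusted p = 0.0702), and Myh15 without culture 2 or 3 (adjusted p = 0.149 and 0.136). Myh4 and Myh2 were called whichever culture was left out.

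Of 41 other sarcomere genes, 4 rose and 6 fell, with a median log2 change of -0.07. The thick filament proteins split: Mybpc1, the slow myosin binding protein C, was at 1623, 2591 and 3541 CPM with aldosterone, against 1107, 2037 and 2529 CPM with vehicle (log2 change 0.46, adjusted p = 0.000388), and its fast relative Mybpc2 also rose (log2 change 0.44, adjusted p = 0.00425). Mybph, a shorter relative, was at 537, 588 and 693 CPM with aldosterone, against 704, 798 and 864 CPM with vehicle, without overlap (log2 change -0.38, adjusted p = 0.000204). The slow tropomyosin gene Tpm3 and Xirp2, an actin-binding repeat protein, rose by 0.31 and 0.23 on the log2 scale (adjusted p = 0.0138 and 0.0494). The other decreases were the M-band gene Myom3 (log2 change -0.38, adjusted p = 0.000546), nebulin (Neb, log2 change -0.35, adjusted p = 0.00688), the embryonic light chain Myl4 (log2 change -0.31, adjusted p = 0.0133), the fast light chain Mylpf (log2 change -0.30, adjusted p = 0.0146) and the cardiac actin Actc1 (log2 change -0.31, adjusted p = 0.0159). Of 17 tested myotube markers, 5 fell and 1 rose, with a median log2 change of -0.195, and their summed level was lower with aldosterone in 3 of 3 cultures. In bulk RNA, fewer myotube nuclei and less of these transcripts per nucleus cannot be told apart. Mybpc1 and Mybph were called whichever culture was left out, Tpm3, Xirp2, Mylpf and Actc1 in none of those fits. Neb and Myl4 lost their calls without culture 2 or 3 (adjusted p = 0.227 and 0.192 without culture 2), Myom3 without culture 2 (adjusted p = 0.0594) and Mybpc2 without culture 3 (adjusted p = 0.167).

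**Figure D3:**
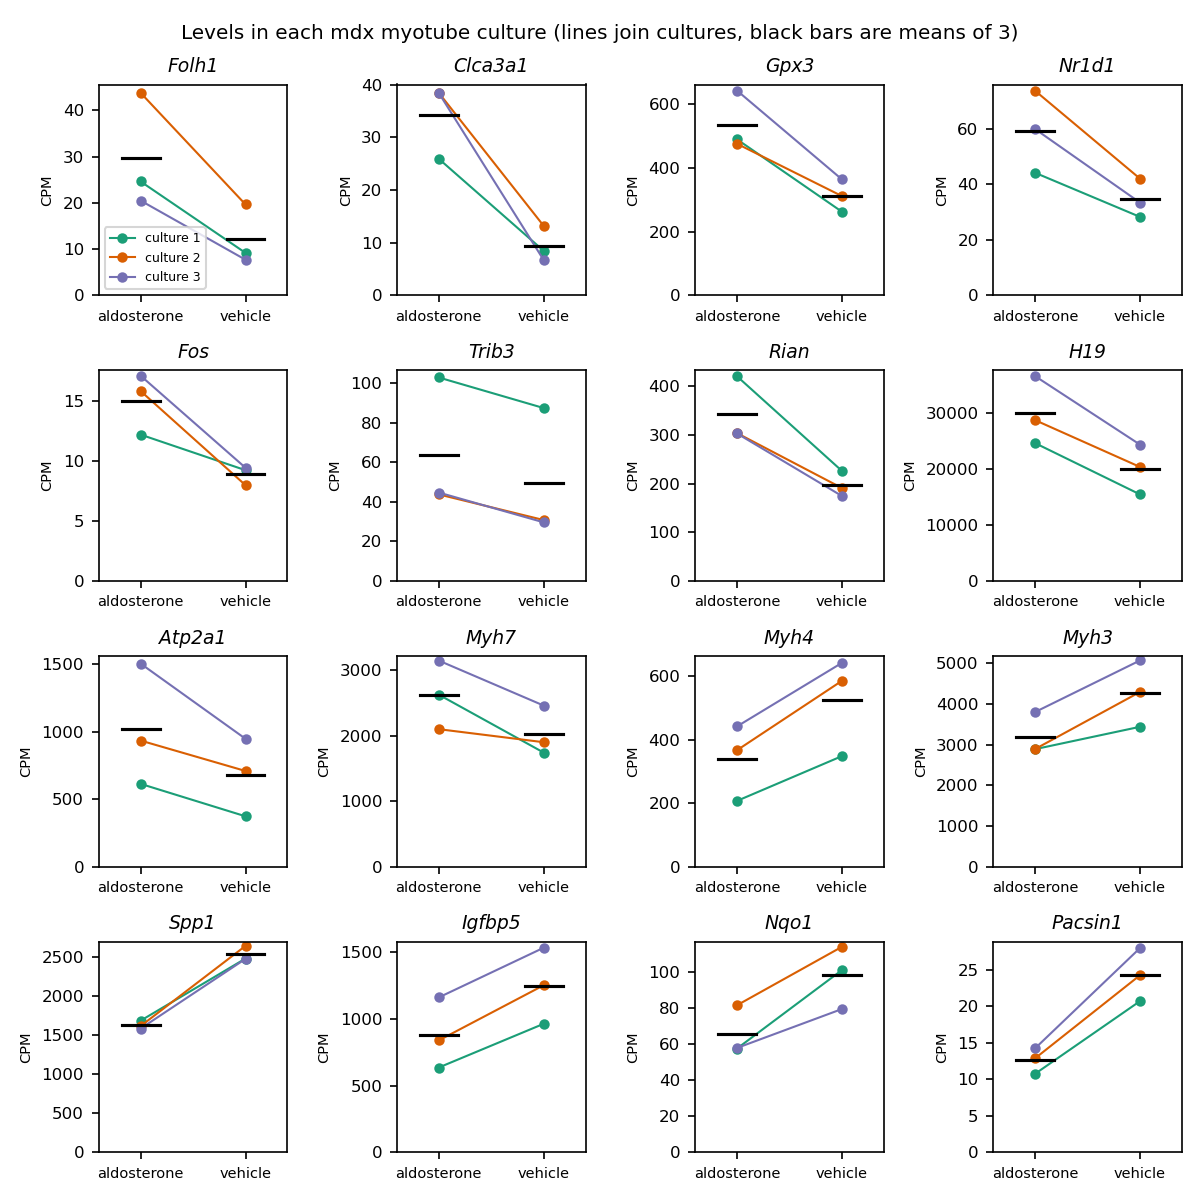
CPM of 16 called genes in each mdx culture, aldosterone left of vehicle; lines join libraries of one culture number and black bars are means of 3. For each gene shown the 3 lines run in the same direction, while cultures differ in level, as for Trib3, where culture 1 lies at 103 and 87.4 CPM.

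Calcium handling followed a similar split, with 1 rise and 3 falls among 26 tested genes and a median log2 change of -0.07. Atp2a1 (ENSMUSG00000030730, chromosome 7, 126045030 to 126062280), the calcium pump of fast fibres, was read at 614, 935 and 1505 CPM with aldosterone, against 373, 709 and 948 CPM with vehicle. It rose in each culture (log2 change 0.59, SE 0.07, adjusted p = 1.14e-05) and was called whichever culture was left out, with groups that overlapped. Its overlap with Rabep2 on the opposite strand concerns a gene of lower level. Casq1, the calcium store of the sarcoplasmic reticulum, was at 347, 295 and 368 CPM with aldosterone, against 457, 418 and 496 CPM with vehicle, without overlap (log2 change -0.44, adjusted p = 0.000413), and held in the same fits. Camk2b, a calcium-activated kinase, and Atp2a2, the pump of slow fibres and heart, fell by log2 changes of -0.32 and -0.23 (adjusted p = 0.00138 and 0.0384). Without culture 2 the log2 change of Atp2a2 was -0.16 (adjusted p = 0.58), and without culture 3 neither Atp2a2 (adjusted p = 0.277) nor Camk2b (adjusted p = 0.0706) was called.

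Of 18 genes of the neuromuscular junction, 1 rose and 3 fell. Ache, acetylcholinesterase, was read at 121, 89.1 and 118 CPM with aldosterone, against 92.3, 75.6 and 83 CPM with vehicle (log2 change 0.38, adjusted p = 0.000837), higher in each culture. Chrng, the fetal subunit of the acetylcholine receptor, was at 472, 394 and 503 CPM with aldosterone, against 555, 526 and 611 CPM with vehicle, without overlap (log2 change -0.31, adjusted p = 0.00288). Its adult counterpart Chrne was scarce, at 3.07, 1.82 and 2.38 CPM with aldosterone, against 4.2, 3.09 and 5.61 CPM with vehicle (log2 change -0.80, adjusted p = 0.0281), and did not overlap either. Musk, the kinase that clusters the receptor, was at 141, 95.8 and 149.6 CPM with aldosterone, against 158, 114 and 187 CPM with vehicle (log2 change -0.24, adjusted p = 0.018). Without culture 2 the adjusted p was 0.13 for Chrng, 0.16 for Chrne and 0.19 for Musk. Chrne and Musk were not called without culture 3 either (adjusted p = 0.455 and 0.333), and Ache lost its call only there (adjusted p = 0.0555).

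Genes that set muscle identity held 1 rise and 2 falls, against 2.33% called over all genes tested. Of 25 myogenic regulators and fusion genes, Igf2 rose and Jam2, an adhesion molecule of fusing cells, and Itga7, the laminin receptor subunit of muscle, fell (log2 change -0.39, adjusted p = 0.00215 and log2 change -0.25, adjusted p = 0.0199). Itga7 was also the only called gene of 24 in the dystrophin complex list. Myod1 and Myog were not called, with log2 changes of -0.15 and 0.01 (adjusted p = 0.293 and 0.958). Of 21 atrophy genes, which glucocorticoids are known to induce, 0 rose and 1 fell. That was Fbxo40, a muscle ubiquitin ligase subunit that targets insulin receptor substrate, at 94.8, 86.4 and 106 CPM with aldosterone, against 121, 113 and 147 CPM with vehicle and without overlap (log2 change -0.40, adjusted p = 0.000193). Neither ubiquitin ligase gene long linked to atrophy was called. Trim63 was at 80.1, 65.5 and 79.7 CPM with aldosterone, against 73.5, 69.9 and 86 CPM with vehicle (log2 change -0.02, adjusted p = 0.926), and Fbxo32 was read at 81.4, 62.2 and 93 CPM with aldosterone, against 74.9, 75.4 and 107 CPM with vehicle (log2 change -0.11, adjusted p = 0.566). Fbxo40 was called whichever culture was left out, Itga7 in none of the fits without 1 culture, and Jam2 not without culture 2 (adjusted p = 0.0661).

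Imprinted growth-control genes, expressed from 1 parental copy, held 6 rises and 1 fall among 19 tested, against 2.33% of all genes called. The median log2 change of this list was 0.20. Like every list here, it was chosen with earlier results of these data known, so its share of calls is no separate support. The 3 noncoding transcripts of the maternally expressed cluster on chromosome 12 rose together. Rian (ENSMUSG00000097451, chromosome 12, 109570242 to 109628150) was read at 421, 304 and 303 CPM with aldosterone, against 226, 191 and 175 CPM with vehicle (log2 change 0.79, SE 0.06, adjusted p = 1.8e-08). Meg3 was at 163, 177 and 151 CPM with aldosterone, against 98.7, 119.8 and 92.4 CPM with vehicle (log2 change 0.67, SE 0.06, adjusted p = 2.73e-07), and Mirg at 14.6, 10.6 and 10.9 CPM with aldosterone, against 8.56, 6.66 and 5.54 CPM with vehicle (log2 change 0.80, SE 0.12, adjusted p = 0.00047). None of the 3 overlapped between treatments, and all were called whichever culture was left out. Dlk1, the paternally expressed neighbour of Meg3, was at 66.2, 29.8 and 18.1 CPM with aldosterone, against 51.5, 32.6 and 14.3 CPM with vehicle and was not called (log2 change 0.20, adjusted p = 0.853).

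The pair on chromosome 7 also rose. H19 (ENSMUSG00000000031, chromosome 7, 142129262 to 142131886), a noncoding RNA and the most abundant called gene, was read at 24640.0, 28750.0 and 36620.0 CPM with aldosterone, against 15470.0, 20380.0 and 24370.0 CPM with vehicle, without overlap (log2 change 0.59, SE 0.08, adjusted p = 3.88e-05). Igf2 (ENSMUSG00000048583, chromosome 7, 142204503 to 142220553), the growth factor gene of the same cluster expressed from the other parental copy, was at 259.7, 334 and 537 CPM with aldosterone, against 189, 249.5 and 317 CPM with vehicle (log2 change 0.55, SE 0.09, adjusted p = 0.00797). Its groups overlapped although each culture rose, and both genes were called whichever culture was left out. Grb10, an adaptor that restrains insulin signalling, was at 463, 364 and 434 CPM with aldosterone, against 369, 308 and 318 CPM with vehicle (log2 change 0.34, adjusted p = 0.000855), and lost its call without culture 3 (adjusted p = 0.0698). Mest was the 1 decrease, at 7.16, 4.05 and 5.04 CPM with aldosterone, against 10.0, 5.68 and 7.25 CPM with vehicle (log2 change -0.50, adjusted p = 0.0413), and was called in none of the fits without 1 culture. The 12 remaining members tested, among them Peg3, Cdkn1c and Gnas, were not called.

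Secreted factors are of interest because medium of these myotubes was passed on to fibroblasts in the study. Of 49 growth factors and their binding proteins, 6 rose and 4 fell, with a median log2 change of 0.04. Spp1 (ENSMUSG00000029304, chromosome 5, 104582984 to 104588916), which encodes osteopontin, was read at 1686, 1617 and 1585 CPM with aldosterone, against 2481, 2643 and 2477 CPM with vehicle. All aldosterone libraries lay below all vehicle libraries (log2 change -0.64, SE 0.06, adjusted p = 7.28e-07). Igfbp5, a binding protein of insulin-like growth factors, was at 636, 839 and 1161 CPM with aldosterone, against 963, 1252 and 1533 CPM with vehicle (log2 change -0.53, SE 0.06, adjusted p = 9.3e-06), lower in each culture with overlapping groups. Both were called whichever culture was left out. Igfbp6, another binding protein, fell with a log2 change of -0.52, and so did Fgf13, a family member that stays within the cell, with -0.27 (adjusted p = 0.0173 and 0.0185). Igfbp6 was called without culture 2 only (adjusted p = 0.16 without culture 1 and 0.19 without culture 3), and Fgf13 in none of the fits without 1 culture.

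Igf1 was read at 7.16, 35.2 and 10.8 CPM with aldosterone, against 4.61, 19.7 and 9.45 CPM with vehicle, and Vegfd, a lymphatic growth factor, at 3.25, 30.8 and 8.83 CPM with aldosterone, against 2.82, 16.1 and 3.77 CPM with vehicle. Both rose (log2 change 0.59, adjusted p = 0.0047 for Igf1 and log2 change 0.84, adjusted p = 0.00541 for Vegfd), and both were highest in culture 2 under either treatment, where fibroblast markers were also highest. Without culture 2 neither was called, with log2 changes of 0.40 (adjusted p = 0.38) and 0.74 (adjusted p = 0.25), and Vegfd was not called without culture 3 either (adjusted p = 0.0968). The matricellular genes Ccn1 and Ccn4 rose by 0.31 and 0.30 on the log2 scale (adjusted p = 0.0409 and 0.0119), but lost their calls without culture 2 (adjusted p = 0.369 and 0.127) or 3 (adjusted p = 0.387 and 0.304). Ccn2, connective tissue growth factor, was higher in each culture, at 435, 636 and 503 CPM with aldosterone, against 388, 490.2 and 379.7 CPM with vehicle, but was not called (log2 change 0.32, adjusted p = 0.168). Csf1, the macrophage growth factor, was at 502, 362 and 280.0 CPM with aldosterone, against 470.0, 297 and 212 CPM with vehicle (log2 change 0.26, adjusted p = 0.0281) and was called without culture 1 but not without culture 2 or 3 (adjusted p = 0.25 and 0.47). Lcn2 and Csf1 were the called members of 20 tested cytokine and chemokine genes. Of 21 interferon-stimulated genes 1 was called, Ifit1, at 1.69, 1.27 and 2.66 CPM with aldosterone, against 0.408, 0.21 and 0.426 CPM with vehicle, without overlap (log2 change 2.33, SE 0.33, adjusted p = 0.000141), a gene with close copies nearby.

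Among 43 genes of the TGF-beta and BMP pathways, 2 rose and 3 fell. Of the 43, 31 had a log2 change above 0, and the median was 0.07. The only ligand genes called were lower, namely Tgfb3, at 147, 211 and 218 CPM with aldosterone, against 169.5, 270.5 and 267 CPM with vehicle (log2 change -0.29, adjusted p = 0.00482), and Gdf11 (log2 change -0.38, adjusted p = 0.0355). Of the secreted BMP inhibitors, Grem1 was at 115, 91.6 and 73.2 CPM with aldosterone, against 122, 126 and 103 CPM with vehicle (log2 change -0.34, adjusted p = 0.0071) and Nog was at 73.1, 63.5 and 75.4 CPM with aldosterone, against 55.5, 56.2 and 63.6 CPM with vehicle (log2 change 0.28, adjusted p = 0.0189). Grem1 was thus lower and Nog higher with aldosterone. Smad7, an inhibitor inside the cell, rose by 0.33 on the log2 scale (adjusted p = 0.00922). Tgfb3 overlaps Ttll5 on the opposite strand. None of these calls held without culture 2, where adjusted p ran from 0.07 for Nog to 0.497 for Gdf11.

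Matrix genes moved in both directions. Of 45 collagen and structural matrix genes, 2 rose and 2 fell, against 2.33% of all genes called, with a median log2 change of 0.06. Col19a1 (ENSMUSG00000026141, chromosome 1, 24300971 to 24626553), a minor collagen of muscle, was read at 45.9, 34.8 and 45.8 CPM with aldosterone, against 22.9, 18.3 and 29 CPM with vehicle, without overlap (log2 change 0.86, SE 0.09, adjusted p = 3.37e-06), and was called whichever culture was left out. Col8a1 was at 140.5, 494 and 245 CPM with aldosterone, against 114, 349 and 160.3 CPM with vehicle, highest in culture 2 under both treatments (log2 change 0.47, adjusted p = 0.0432), and was not called without culture 2 or 3 (adjusted p = 0.296 and 0.196). Tenascin C (Tnc) fell to 118, 136 and 120.1 CPM with aldosterone, against 146, 189 and 148 CPM with vehicle (log2 change -0.36, adjusted p = 0.0027), without overlap, and Nid2, a basement membrane linker, fell as well (log2 change -0.39, adjusted p = 0.0148). Nid2 shares 437 bases with Rtraf on the opposite strand, a gene with a mean of 130 CPM. Col1a1, the main fibrillar collagen, was at 659.8, 2008 and 1096 CPM with aldosterone, against 697, 1958 and 774 CPM with vehicle, Postn, a matrix protein of activated fibroblasts, at 28.8, 240.1 and 92.7 CPM with aldosterone, against 37.8, 127 and 71.1 CPM with vehicle, and Acta2, smooth muscle actin, at 936, 697 and 823 CPM with aldosterone, against 1011, 849 and 889 CPM with vehicle. None of the 3 was called (log2 change 0.15, adjusted p = 0.881, log2 change 0.35, adjusted p = 0.786 and log2 change -0.17, adjusted p = 0.169). Postn, which is not among the fibroblast markers, was like their sum highest in culture 2 and lowest in culture 1 under both treatments. Of 31 matrix enzymes and inhibitors, 2 rose: Adamts5, a protease of aggrecan, at 156, 254 and 163 CPM with aldosterone, against 128, 186 and 119 CPM with vehicle (log2 change 0.40, adjusted p = 0.000663), and Loxl4, a collagen crosslinking enzyme (log2 change 0.42, adjusted p = 0.0452). Adamts5 was called whichever culture was left out, and Loxl4 in none of those fits. Tnc lost its call without culture 2 (adjusted p = 0.124), and Nid2 without culture 1 or 2 (adjusted p = 0.106 and 0.214).

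Calls in energy metabolism differed between lists and are given beside the 2.33% called over all genes tested. None of 43 nuclear oxidative phosphorylation genes and none of 13 mitochondrially encoded genes was called. Of the 43 nuclear genes, 6 had a log2 change above 0, and their median was -0.06. Of the 13 mitochondrial genes, 1 had a log2 change above 0, and their median was -0.15. In C57 myotubes the medians were 0.03 for the nuclear and 0.14 for the mitochondrial genes. In glycolysis and glycogen use, 2 of 36 genes fell, lactate dehydrogenase B (Ldhb, log2 change -0.30, adjusted p = 0.0464) and the glycogen phosphorylase of muscle (Pygm, log2 change -0.22, adjusted p = 0.0483). Of 35 genes of fatty acid use, Lpl and Fabp4 rose and the uncoupling protein genes Ucp2 and Ucp3 fell. Lpl, which frees fatty acids from lipoproteins, was at 6.92, 20.6 and 26.8 CPM with aldosterone, against 3.89, 12.6 and 21.8 CPM with vehicle (log2 change 0.56, adjusted p = 0.00333). Fabp4, a fatty acid carrier of adipocytes and macrophages, was at 1.32, 3.33 and 4.75 CPM with aldosterone, against 1, 1.12 and 0.781 CPM with vehicle, without overlap (log2 change 1.49, adjusted p = 0.00722), and Fabp4 was the only called gene of 4 tested adipocyte markers. Ucp2 was at 14.3, 16.2 and 14 CPM with aldosterone, against 19.6, 18.4 and 20.6 CPM with vehicle, without overlap (log2 change -0.40, adjusted p = 0.0195), and Ucp3 changed by -0.39 on the log2 scale (adjusted p = 0.0413). In cholesterol and fatty acid synthesis, Dhcr7, the last enzyme of cholesterol synthesis, fell (log2 change -0.34, adjusted p = 0.00257) and Acss2, which activates acetate and overlaps Gss on the opposite strand, rose (log2 change 0.26, adjusted p = 0.0484), out of 34 tested. Of these calls, only that of Ucp2 held without culture 2 (adjusted p = 0.0332), and it was lost without culture 1 or 3. Lpl was lost without culture 2 (adjusted p = 0.124), and Fabp4 and Dhcr7 without culture 2 (adjusted p = 0.124 and 0.0863) or 3 (adjusted p = 0.209 and 0.0756). Ldhb, Pygm, Ucp3 and Acss2 were called in none of the fits without 1 culture.

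Of 36 antioxidant genes, 2 rose and 2 fell. Beside Gpx3, Nox4, an oxidase that makes hydrogen peroxide, was higher, at 14.9, 11.9 and 8.94 CPM with aldosterone, against 10.3, 9.47 and 5.54 CPM with vehicle (log2 change 0.51, adjusted p = 0.0246). Nqo1 (ENSMUSG00000003849, chromosome 8, 108114857 to 108129838), a quinone reductase, was at 57.5, 81.5 and 57.8 CPM with aldosterone, against 101, 114 and 79.4 CPM with vehicle, lower in each culture (log2 change -0.59, SE 0.07, adjusted p = 6.35e-05), and was called whichever culture was left out. Gsta4, a glutathione transferase, was at 11.9, 17.4 and 11.4 CPM with aldosterone, against 18.5, 25.1 and 14.7 CPM with vehicle (log2 change -0.52, adjusted p = 0.00707). Its groups overlapped, and it was called without culture 3 but not without culture 1 or 2 (adjusted p = 0.0996 and 0.124). Nox4 was called in none of the fits without 1 culture.

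The remaining lists are likewise given beside the 2.33% called over all genes tested. None of 40 cell cycle genes, 36 Notch and Wnt genes, 18 retinoic acid genes, 15 fibroblast markers, 9 myoblast markers or 11 endothelial markers was called. Of 11 smooth muscle and pericyte markers, 2 fell: Abcc9, a regulatory subunit of potassium channels that muscle also expresses, at 54.3, 47.8 and 80.7 CPM with aldosterone, against 79.9, 76.4 and 115 CPM with vehicle (log2 change -0.58, adjusted p = 1.26e-06), and Rgs5 (log2 change -0.48, adjusted p = 0.0218). Abcc9 was called whichever culture was left out, Rgs5 in none of the fits without 1 culture. No call was made among the 3 neutrophil and lymphocyte, 7 Schwann cell and neuron and 5 tendon and cartilage markers tested.

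**Figure D4:**
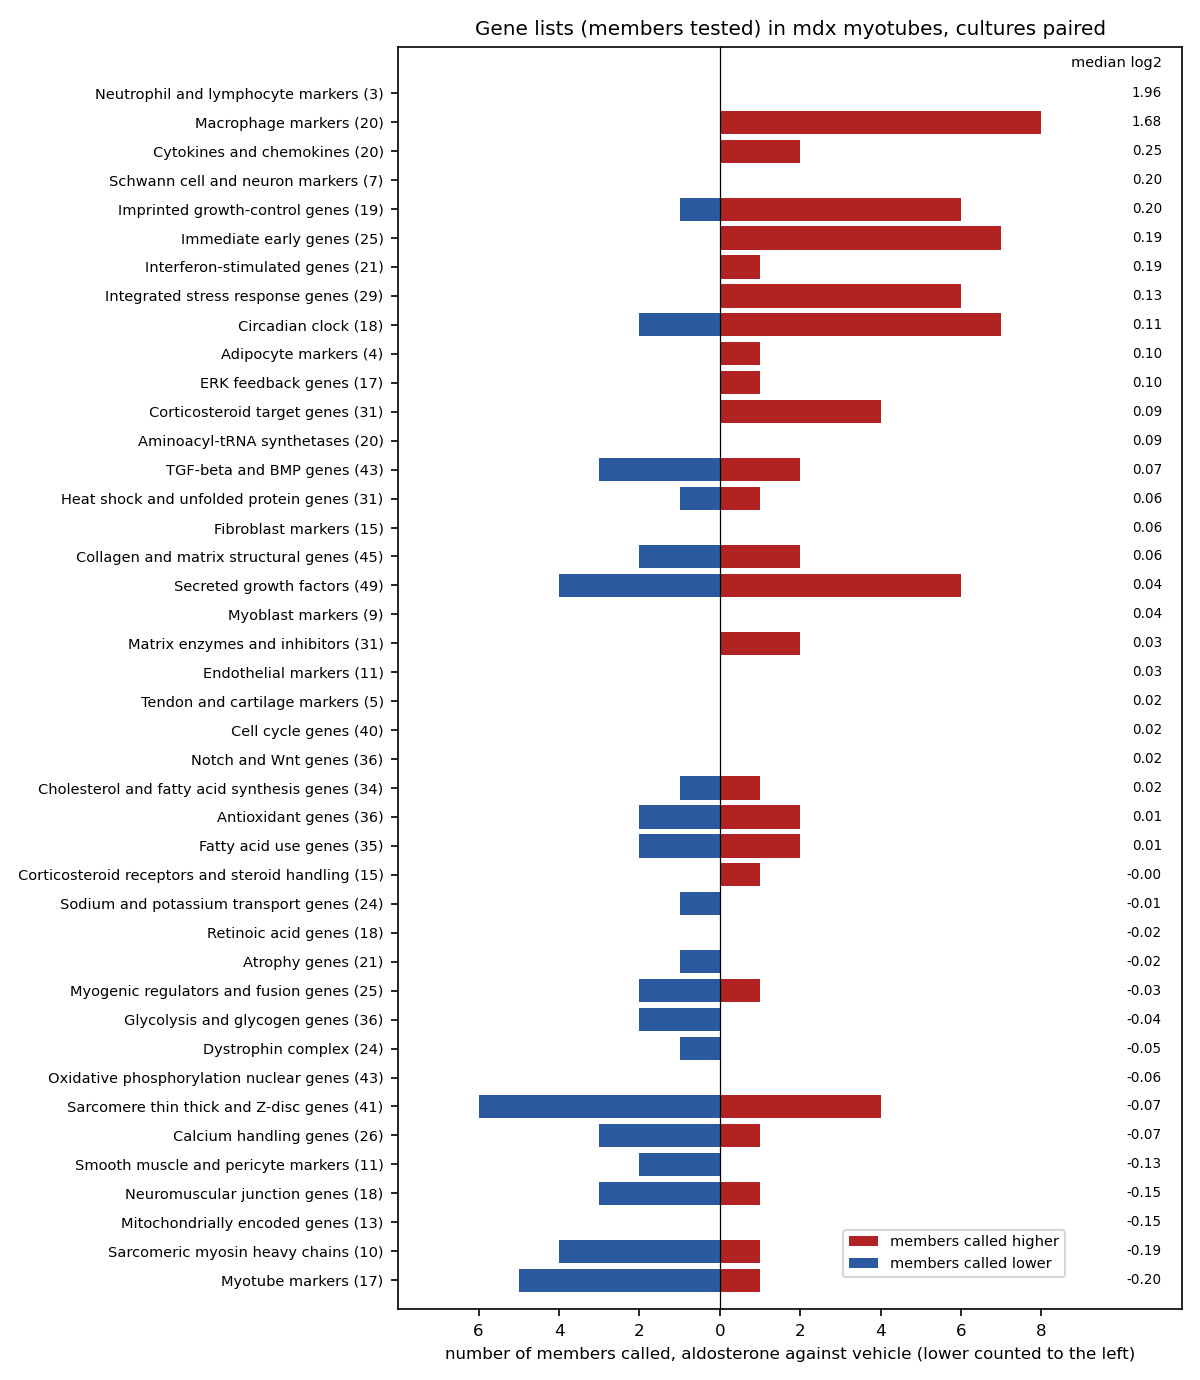
Number of members called higher (red, to the right) and lower (blue, to the left) with aldosterone in mdx myotubes in each gene list with at least 3 members tested; the number tested stands in brackets and the median log2 change at the right. Clock, immediate early and integrated stress response genes have 7, 7 and 6 members called higher, myotube markers 5 and sarcomere genes 6 called lower, and macrophage markers 8 called higher.

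The largest increases among called protein-coding genes with at least 5 CPM in a group and agreement of 3 cultures began with Prl3a1, a prolactin family gene, at 9.15, 5.75 and 2.72 CPM with aldosterone, against 1.44, 2.73 and 0.711 CPM with vehicle (log2 change 1.95, adjusted p = 0.0162), which overlapped. Clca3a1 (ENSMUSG00000056025, chromosome 3, 144435438 to 144466738), of a family of chloride channel regulators, was read at 25.9, 38.5 and 38.5 CPM with aldosterone, against 8.43, 13.2 and 6.68 CPM with vehicle, without overlap (log2 change 1.84, SE 0.19, adjusted p = 0.00635). Map2, a microtubule protein best known from neurons, was at 7.64, 20.3 and 8.83 CPM with aldosterone, against 2.88, 8.63 and 3.13 CPM with vehicle (log2 change 1.36, SE 0.13, adjusted p = 7.28e-07). Folh1 (ENSMUSG00000001773, chromosome 7, 86368185 to 86425151), a glutamate carboxypeptidase of the cell surface, was at 24.6, 43.8 and 20.5 CPM with aldosterone, against 9.15, 19.6 and 7.67 CPM with vehicle, without overlap (log2 change 1.32, SE 0.09, adjusted p = 8.39e-09). Ankrd2, a stretch-responsive muscle protein, was at 7.95, 3.27 and 3.9 CPM with aldosterone, against 4.92, 0.912 and 1.21 CPM with vehicle (log2 change 1.13, adjusted p = 0.00205). Itgbl1, a secreted protein related to integrins, was at 11.7, 65.4 and 27.6 CPM with aldosterone, against 9.19, 33 and 12.9 CPM with vehicle (log2 change 0.84, adjusted p = 0.000207), highest in culture 2. Col19a1, Vegfd and Dbp, described above, were also among them. Without culture 1 the adjusted p of Prl3a1 was 0.056, and without culture 3 it was 0.12. Clca3a1, Map2, Folh1, Ankrd2 and Itgbl1 were called whichever culture was left out.

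The largest decreases by the same rule included several receptors. Cd300c, a receptor of myeloid cells, was at 3.67, 5.75 and 5.83 CPM with aldosterone, against 5.55, 12 and 17 CPM with vehicle (log2 change -1.11, adjusted p = 0.000179). It was read in every library of culture 1, where 10 of the 20 macrophage markers were at 0. Gabrd, a subunit of the receptor for the transmitter GABA, was at 3.49, 7.2 and 6.11 CPM with aldosterone, against 6.43, 14.2 and 13.8 CPM with vehicle (log2 change -1.02, SE 0.13, adjusted p = 3.88e-05). S1pr3, a receptor for sphingosine 1-phosphate, was at 1.5, 11.1 and 3.4 CPM with aldosterone, against 4.64, 16.8 and 5.97 CPM with vehicle (log2 change -0.90, adjusted p = 0.0124), and the orphan receptor Gpr20 at 1.5, 4.54 and 4.36 CPM with aldosterone, against 2.44, 7.57 and 7.53 CPM with vehicle (log2 change -0.75, adjusted p = 0.048). Pacsin1 (ENSMUSG00000040276, chromosome 17, 27874483 to 27930456), which bends membranes in endocytosis, was at 10.8, 12.9 and 14.3 CPM with aldosterone, against 20.7, 24.3 and 28 CPM with vehicle, without overlap (log2 change -0.94, SE 0.11, adjusted p = 1.25e-05). Fam107a, an actin-binding protein, was at 7.28, 10.7 and 14.4 CPM with aldosterone, against 16.1, 17.7 and 24.5 CPM with vehicle, also without overlap (log2 change -0.88, adjusted p = 1.94e-05).

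Tmem252, a membrane protein, was at 27.4, 35.8 and 49.6 CPM with aldosterone, against 41.1, 65.4 and 91.7 CPM with vehicle (log2 change -0.79, SE 0.07, adjusted p = 2.73e-07), which was the smallest adjusted p among decreases. Cpxm1, of the carboxypeptidase family, was at 1.32, 4.96 and 2.6 CPM with aldosterone, against 4.67, 9.47 and 3.48 CPM with vehicle (log2 change -1.03, adjusted p = 0.0109), the coactivator gene Cited1 at 5.78, 5.81 and 4.41 CPM with aldosterone, against 8.97, 10.4 and 8.1 CPM with vehicle (log2 change -0.77, adjusted p = 0.0288), and the hydrolase gene Cmbl at 3.01, 3.99 and 4.75 CPM with aldosterone, against 4.58, 6.24 and 9.24 CPM with vehicle (log2 change -0.75, adjusted p = 0.0145). Cd300c, Gabrd, Pacsin1, Fam107a and Tmem252 were called whichever culture was left out, S1pr3, Cited1 and Gpr20 in none of the fits without 1 culture, and Cpxm1 and Cmbl in 1 of 3.

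Macrophage markers gave the list with the most called increases, and none of these was called without culture 2. Of 20 tested, 8 were called higher and 0 lower, and the median log2 change was 1.68. Tyrobp, a signalling adaptor of myeloid cells, was at 0, 5.63 and 0.34 CPM with aldosterone, against 0, 0.842 and 0.0711 CPM with vehicle. C1qc, of the complement system, was at 0, 11.6 and 0.679 CPM with aldosterone, against 0, 2.38 and 0.568 CPM with vehicle, and Ptprc, the CD45 antigen of blood cells, at 0, 4.24 and 0.34 CPM with aldosterone, against 0, 0.912 and 0 CPM with vehicle. Each was at 0 in both libraries of culture 1 and highest in the aldosterone library of culture 2. Ms4a7 was at 0, 5.45 and 0.396 CPM with aldosterone, against 0, 0.912 and 0.355 CPM with vehicle, and Csf1r, the receptor for the product of Csf1, at 0.12, 7.69 and 0.849 CPM with aldosterone, against 0.094, 1.89 and 0.781 CPM with vehicle. Csf1r shares 873 bases with Hmgxb3 on the opposite strand, a gene with a mean of 41.9 CPM. The other called markers were Cx3cr1, C1qa and Fcgr1, the last with 15 reads with aldosterone and 0 with vehicle.

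In all, 16 called increases were not higher in 3 of 3 cultures, and none of them was called without culture 2. Beside Tyrobp, C1qc, Ptprc, Ms4a7, Cx3cr1, C1qa and Fcgr1 they were Vav1, Fcgr3, Fcgr2b, Tlr7, Tlr1, Bin2, Btk, Cd200r4 and B430306N03Rik. Without culture 2 their log2 changes ran from -0.13 for Fcgr2b to 4.31 for Ptprc and Vav1, with a median of 0.98. Ptprc and Vav1 were at 0 in the vehicle libraries of cultures 1 and 3, so the size of their fitted change is no measured fold. That of C1qc was 0.25 (adjusted p = 0.97) and that of Tyrobp 2.03 (adjusted p = 0.715), so some stayed large and others lay near 0, and at the levels of cultures 1 and 3 they rest on few reads. Csf1r, higher in 3 of 3 cultures, had a log2 change of 0.16 without culture 2 (adjusted p = 0.974). Vehicle libraries held 0 reads of 5 of the called genes (Tlr1, Bin2, Btk, Cd200r4 and Fcgr1), so their fitted changes have no lower group to rest on. Whether aldosterone or the makeup of that culture gave the difference cannot be told apart with 1 such culture. The part that the macrophage transcripts of culture 2 play in the other calls was not tested. Without that culture, 48 of the 159 increases and 49 of the 208 decreases were still called. The numbers still called were 99 and 121 without culture 1, and 58 and 66 without culture 3.

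The same treatment was compared in C57 myotubes to see where the mdx response differs. In C57 myotubes 2 genes were called without pairing and 785 with it, or 4.98% of those tested. Of the mdx calls, 244 were called in C57 in the same direction, which is 66.5% of the mdx calls and 31.1% of the C57 calls, and 2 were called in the opposite direction, Tyrobp and Lpl. The median C57 change was 0.39 over the 159 mdx increases and -0.35 over the 208 mdx decreases. Of these decreases, 207 also had a negative log2 change in C57, and of the increases 132 had a positive one.

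The log2 changes of both genotypes correlated with r = 0.526 over the 367 called genes and r = 0.268 over all 15763 tested. Several called genes had log2 changes of like size in both genotypes. These changes were 1.32 in mdx and 1.59 in C57 for Folh1, 0.78 in mdx and 0.75 in C57 for Gpx3 and 0.79 in mdx and 0.77 in C57 for Rian. They were 0.76 in mdx and 0.82 in C57 for Nr1d1, -0.65 in mdx and -0.66 in C57 for Myh4, 0.59 in mdx and 0.68 in C57 for Atp2a1 and -0.53 in mdx and -0.53 in C57 for Igfbp5. For others the values lay further apart, with 0.67 in mdx and 0.39 in C57 for Meg3, 0.73 in mdx and 1.13 in C57 for Fos and 0.51 in mdx and 0.99 in C57 for Nox4. For Igf1 they were 0.59 in mdx and -0.02 in C57, and for Musk -0.24 in mdx and -0.02 in C57. For none of these genes was the difference between genotypes called. Fkbp5 passed in C57 alone (log2 change 0.57, adjusted p = 0.000243), again with no call for the difference, and Nr3c1, Nr3c2, Tsc22d3, Sgk1, Ccn2, Col1a1, Postn and Acta2 passed in neither genotype.

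A direct test of the difference between genotypes called 0 genes without pairing, with 152 at an unadjusted p under 0.05, and 7 with it, or 0.0444% of genes tested. Leaving out mdx culture 1, 2 or 3 gave 16, 2 and 23 such genes, of which 5, 1 and 5 were among the 7. Leaving out C57 culture 1, 2 or 3 gave 13, 7 and 5, of which 6, 4 and 3 were among the 7. Only Lpl was called in all 6 of these fits. Of the 7, 5 were genes of blood or myeloid cells: Tyrobp, C1qc, Vav1, Hcls1 and Csf1r. In C57 myotubes Tyrobp was at 0.451, 11.3 and 6.13 CPM with aldosterone, against 0.566, 15.7 and 10.2 CPM with vehicle, and C1qc at 0.3, 25.9 and 12.8 CPM with aldosterone, against 0.61, 29.9 and 17.1 CPM with vehicle. Both libraries of the C57 cultures 2 and 3 therefore held more of these 2 transcripts than any mdx library. Hcls1, in contrast to the other 4, did not overlap between treatments in mdx myotubes, at 1.2, 2 and 1.25 CPM with aldosterone, against 0.47, 0.631 and 0.355 CPM with vehicle.

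The remaining differences were Lpl and Ptgs2. Lpl, at the mdx levels given above, was at 19.6, 52.6 and 44.4 CPM with aldosterone, against 30.1, 68.3 and 69.4 CPM with vehicle in C57 myotubes, so that it was higher with aldosterone in 3 of 3 mdx cultures and lower in 3 of 3 C57 cultures (difference of the log2 changes 1.10, SE 0.13, adjusted p = 0.000385). Ptgs2, the inducible enzyme of prostaglandin synthesis, was at 99.5, 69.2 and 57 CPM with aldosterone, against 109, 71.7 and 61.5 CPM with vehicle in mdx myotubes and at 50.2, 75.2 and 81.7 CPM with aldosterone, against 30.7, 57.8 and 64.9 CPM with vehicle in C57 myotubes (difference of the log2 changes -0.56, SE 0.10, adjusted p = 0.0227). In mdx it was not called (log2 change -0.10, adjusted p = 0.63), and in C57 it rose (log2 change 0.47, adjusted p = 0.000118).

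**Figure D5:**
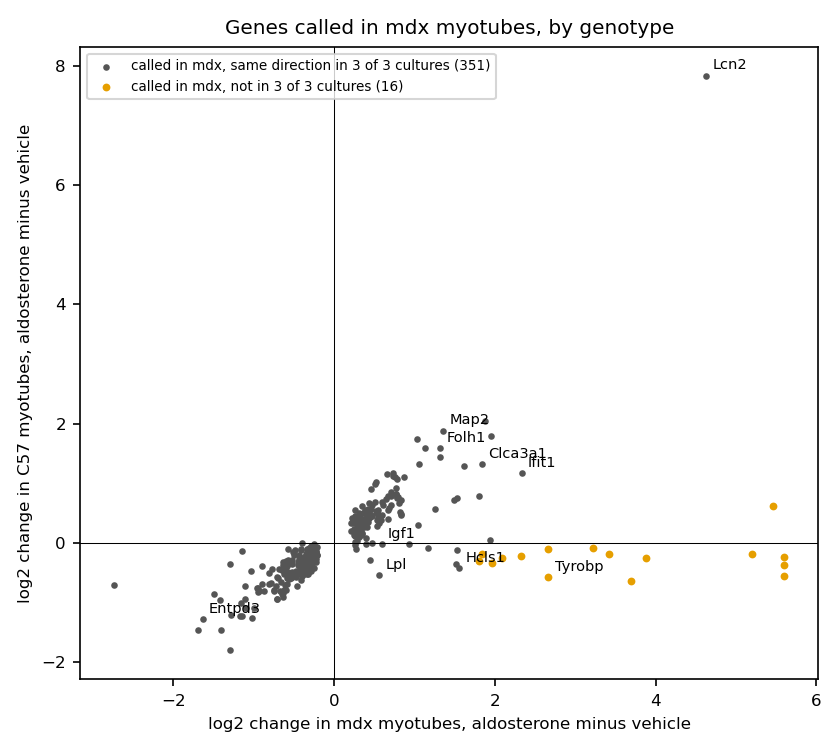
Log2 change with aldosterone in mdx myotubes (horizontal) and in C57 myotubes (vertical) of the 367 genes called in mdx myotubes; grey points are the 351 genes with the same direction in 3 of 3 mdx cultures and orange points the 16 without. Most grey points lie in the quadrants of equal sign, and 15 of the 16 orange points lie below 0 in C57.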

How the data were processed

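Gene counts and FPKM values of all libraries were used as deposited by the authors. The deposited counts are whole reads per gene, for which the submitters' processing notes list featureCounts 1.5.0-p3 and the build mm39. The deposited FPKM values (scaled by the authors for gene length and library size) served only to compare levels between genes. Per the labels' protocols, the kit selected poly(A) RNA and was not directional, so reads do not show which of 2 overlapping genes on opposite strands they came from. Neither aligner nor annotation was given in the sources used here. Both tables hold 0 columns without a sample.

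The 12 myotube libraries were fitted together in R 4.3.3 with edgeR 4.0.16. Its default filter kept 15763 genes, libraries were scaled by TMM, and contrasts were tested by the robust quasi-likelihood test, with p-values adjusted by Benjamini-Hochberg over these genes and called below 0.05. The fit without pairing was the primary design. Aldosterone and vehicle cultures share replicate numbers, so the pairing was checked by correlating, over genes, how far same-numbered libraries lay from their group means (log2 CPM, prior count 2). The correlation was 0.673, 0.613 and 0.482 in mdx, against -0.516 to -0.161 for different numbers, and 0.704, 0.495 and 0.359 in C57, against -0.607 to 0.35 for different numbers. In C57 the different numbers 2 and 3 thus correlated nearly as highly as pair 3. Every same-numbered pair exceeded 0.1, and each gene value given is from the fit with the culture as a block. The standard error was taken as the log2 change over the square root of F.

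Named genes are, for each direction, the 10 called protein-coding genes of largest change that averaged 5 CPM or more under either treatment and moved alike in 3 of 3 cultures, up to 4 called members of each of 43 gene lists by smallest p, the genes called for the difference between genotypes, and a fixed set of hormone and fibrosis genes. A gene that the rule names is not reported here. Other called list members are given by their change, and genes named to show that they were not called were chosen after their values were seen. The lists hold 1014 genes, of which 931 were tested. The members, lists and rules were chosen with earlier results of these data known. The direction within a culture compares log2 of CPM plus 0.5. Promoter windows are RefSeq's for GRCm38.p6. Scripts were tested on simulated data. The alternatives were RLE scaling, no filter and a stricter filter of 5 CPM, DESeq2 1.42.0, voom of limma 3.58.1, the 6 mdx libraries alone, and each library or culture left out.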

Additional observations from a re-analysis of the deposited data

Results flagged for a closer look

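The aldosterone effect differed between mdx and C57 myotubes for 7 genes, tested as the difference of the paired log2 changes with edgeR's quasi-likelihood test and Benjamini-Hochberg adjustment over 15763 genes. Of these, 5 are genes of myeloid or blood cells whose change was the more positive in mdx: 3.24 for Tyrobp (adjusted p = 0.000385), 2.29 for C1qc (adjusted p = 0.00685), 4.12 for Vav1 (adjusted p = 0.0499), 1.98 for Hcls1 (adjusted p = 0.0416) and 1.86 for Csf1r (adjusted p = 0.0449). In mdx myotubes Vav1 was read at 0, 2.06 and 0.34 CPM with aldosterone, against 0, 0.14 and 0 CPM with vehicle. In C57 myotubes it was read at 0.15, 3.22 and 2.45 CPM with aldosterone, against 0.0871, 4.46 and 2.53 CPM with vehicle. Among the 6 mdx libraries, all 5 were highest in the aldosterone library of culture 2, where the summed level of 20 macrophage markers was 239.8 CPM, against 49.9 CPM in its vehicle library. The part of these cells in the difference was not tested. Lpl differed by 1.10 (adjusted p = 0.000385), higher with aldosterone in 3 of 3 mdx cultures and lower in 3 of 3 C57 cultures. Ptgs2 differed by -0.56 (adjusted p = 0.0227), lower with aldosterone in 3 of 3 mdx cultures and higher in 3 of 3 C57 cultures. Without pairing 0 genes were called, with 152 at an unadjusted p under 0.05, and without mdx culture 2 the paired test called 2 genes, of which Lpl is the only one of these 7. With each of the 6 cultures left out in turn, Lpl was called in 6 fits, Tyrobp in 5, C1qc in 4, Csf1r and Ptgs2 in 3, Vav1 in 2 and Hcls1 in 1.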

How the results depend on the processing

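Pairing decided the number of calls. With the replicate block, 367 genes were called in mdx, 785 in C57 and 7 for the difference between genotypes, against 0, 2 and 0 without it. With the block, RLE scaling gave 368, 772 and 6, no low-count filter 575, 1000 and 54, a stricter filter 300, 700 and 2, DESeq2 228, 466 and 4, and voom 321, 842 and 4, in each case for mdx, C57 and the difference. The 6 mdx libraries alone gave 649 with the block and 0 without it. Without the block, no filter gave 16 in mdx and 26 in C57, and DESeq2 gave 19 in mdx and 57 in C57. Leaving out replicates gave 0 to 300 calls in mdx and 0 to 23 for the difference. All values of 0 came from unpaired fits with 1 library left out, and the paired fits without 1 culture gave at least 101 in mdx and 2 for the difference. The cause of these shifts was not tested. Of 99 called genes that are named, in fits with the block, 99 were still called with RLE scaling, 98 without a filter, 92 with voom and 77 with DESeq2.

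Direction was steadier. Of 110 named genes, 91 kept their sign under every alternative run. For the other 19 the sign turned in 25 values, each that of 1 gene in 1 fit. Of these values, 23 came from unpaired fits without 1 library and 2 from paired fits without 1 culture. The cause was not tested. With replicates left out, the log2 changes of these genes ranged from -0.28 to 2.13 for Vegfd, -1.87 to 0.016 for S1pr3, -0.17 to 1.08 for Trib3, -0.0027 to 0.78 for Chac1, -0.69 to 0.039 for Myh2, -0.098 to 1.10 for Col8a1, -0.29 to 1.37 for Igf1, -0.022 to 0.59 for Csf1, -0.75 to 0.0041 for Neb, -0.44 to 6.14 for Tyrobp, -1.23 to 4.37 for C1qc, -0.46 to 8.03 for Ptprc, -0.73 to 3.95 for Ms4a7, -0.35 to 0.18 for Ptgs2, -0.67 to 3.06 for Csf1r, -0.068 to 0.32 for Nr3c1, -0.23 to 0.41 for Sgk1, -0.37 to 0.77 for Col1a1 and -0.35 to 1.15 for Postn. With 3 cultures a treatment and totals of 14133165 to 30167246 counts in the mdx libraries, genes below 1 CPM rest on few reads.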

Other observations

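Among the 71 genes called whichever culture was left out were several outside every list, chosen here after their values were seen. Fhl1, which encodes a LIM-domain protein of muscle, rose in 3 of 3 cultures and was read at 1061, 1223 and 1854 CPM with aldosterone, against 751, 797 and 1124 CPM with vehicle (log2 change 0.61, SE 0.07, adjusted p = 4.63e-05). Dusp29, a phosphatase of muscle, was at 63.8, 22.8 and 40.5 CPM with aldosterone, against 38.4, 14 and 26.6 CPM with vehicle (log2 change 0.68, adjusted p = 3.81e-06), with culture 1 highest under both treatments. Npr3, which clears natriuretic peptides, was at 41.7, 63.9 and 48.4 CPM with aldosterone, against 32.5, 37.5 and 34.8 CPM with vehicle, without overlap (log2 change 0.53, adjusted p = 0.000677). The partner subunits of the receptor for calcitonin gene-related peptide moved in opposite directions. Calcrl, its receptor subunit, was at 22.5, 35 and 44.8 CPM with aldosterone, against 18.2, 22.4 and 27.9 CPM with vehicle (log2 change 0.54, adjusted p = 0.000627), and Ramp1, its accessory subunit, at 11.4, 20.5 and 22.5 CPM with aldosterone, against 19.6, 27.5 and 32 CPM with vehicle (log2 change -0.56, adjusted p = 0.000553).

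Other such genes fell. Gamt, the last enzyme of creatine synthesis, was at 22.4, 27.8 and 39.1 CPM with aldosterone, against 34.6, 45 and 52.5 CPM with vehicle (log2 change -0.58, adjusted p = 3.29e-05), and Ckb, the brain-type creatine kinase, was at 46.9, 52.2 and 43.7 CPM with aldosterone, against 77.1, 63.9 and 61.2 CPM with vehicle, without overlap (log2 change -0.50, adjusted p = 0.00184). Wfs1, a protein of the endoplasmic reticulum, was at 274, 285 and 350.1 CPM with aldosterone, against 392, 444 and 522 CPM with vehicle (log2 change -0.58, SE 0.05, adjusted p = 4.43e-07), and Entpd3, which hydrolyses extracellular nucleotides, at 0.843, 1.82 and 1.87 CPM with aldosterone, against 3.51, 4.49 and 5.83 CPM with vehicle (log2 change -1.63, adjusted p = 3.87e-05). Both were without overlap between treatments. In C57 myotubes the log2 changes were 0.64 for Fhl1, 0.58 for Dusp29, 0.51 for Npr3, 0.55 for Calcrl, -0.61 for Ramp1, -0.48 for Gamt, -0.52 for Ckb, -0.60 for Wfs1 and -1.27 for Entpd3.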
